A study of Mus musculus with 36 samples.

Results

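The cytosolic ribosomal protein genes, which encode the proteins of the small and the large subunit of the ribosome, were followed in liver and kidney of mice fed a ketogenic, a high-fat or a control diet. Genes were taken by symbol alone (Rps or Rpl with a number, Rplp0 to Rplp2, and Rpsa, leaving out symbols marked as pseudogenes). The rule found 75 genes of 33495 in the liver table and 77 genes of 37991 in the kidney table, and Rps13 and Rps27 were found in the kidney table alone. All 75 and all 77 passed the filter on low counts, which left 13374 genes in liver and 15074 in kidney.

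A ribosome joins a small subunit, which reads the mRNA, to a large subunit, which joins amino acids into a chain. Its proteins are made in matched amounts, and their mRNAs begin with a run of pyrimidines, the terminal oligopyrimidine tract, through which the nutrient-sensing kinase mTORC1 controls their translation. Liver and kidney both spend much of their protein synthesis on secreted or membrane proteins, and in fasted rodents ribosome content of the liver is known to fall.

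RNA was taken from 12-month-old male C57BL/6 mice of the National Institute on Aging colony, collected between midnight and 3 am. KD mice had eaten for 1 week a ketogenic diet with 90% of its energy from fat, and HF mice a high-fat, non-ketogenic diet with 75%. Control mice stayed on the habituation diet, an AIN-93M control diet with 12% of its energy from fat, and per the sample labels each diet gave 10% of energy as protein. Each tissue had 7 KD, 6 HF and 5 Control libraries, 36 libraries in all, named here by diet and the number in their label (KD 0 to KD 6, HF 0 to HF 5, Control 0 to Control 4). Nothing in the labels states that each library came from a separate mouse or that a number is shared between tissues, so p-values measure the spread between these libraries.

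Liver libraries held 18.9 to 35.9 M counts (M, mega) and kidney libraries 25.4 to 47 M counts, of which mitochondrially encoded genes took 49.7 to 71.7% in liver and 68.3 to 79.7% in kidney. The tissues carried their own markers: all 10 hepatocyte genes were tested in liver, where they summed to between 39500 and 56700 CPM in the KD, 39900 and 55000 in the HF and 39900 and 50600 in the Control libraries. All 10 proximal tubule genes were tested in kidney and summed to 5740 to 9000, 6680 to 8480 and 8130 to 9310 CPM in KD, HF and Control. None of 10 genes of the loop of Henle, distal tubule and collecting duct passed the filter in liver. CPM is a gene's count scaled to a common library size, here with TMM factors, which align the libraries on their shared genes.

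The start regions of 5 genes are printed because these genes stand at both ends of the pattern described further on: in liver, Rps12, Rps21 and Rpl34 had the largest differences between libraries numbered 0 and 1 and the rest, and Rpl7a and Rpl4 the smallest. They were chosen after their values were seen. Each run holds 100 bases before and 30 bases from the RefSeq start on GRCm38.p6, on the gene's own strand. Capitals mark either CCGGAAG, the core of the site of ETS-family factors (or its complement CTTCCGG), or a run of at least 8 pyrimidines (C or T) near the start.
Rps12: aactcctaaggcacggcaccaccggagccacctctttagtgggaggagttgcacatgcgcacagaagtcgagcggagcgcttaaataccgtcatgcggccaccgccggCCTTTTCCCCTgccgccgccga
Rps21: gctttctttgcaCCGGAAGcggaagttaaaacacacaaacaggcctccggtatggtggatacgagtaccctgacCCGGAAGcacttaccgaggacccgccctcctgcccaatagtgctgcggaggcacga
Rpl34: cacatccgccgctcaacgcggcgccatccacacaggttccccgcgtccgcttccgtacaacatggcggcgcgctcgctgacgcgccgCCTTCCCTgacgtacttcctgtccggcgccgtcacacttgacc
Rpl7a: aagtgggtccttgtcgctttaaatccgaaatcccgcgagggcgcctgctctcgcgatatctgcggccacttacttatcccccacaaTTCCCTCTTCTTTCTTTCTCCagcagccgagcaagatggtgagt
Rpl4: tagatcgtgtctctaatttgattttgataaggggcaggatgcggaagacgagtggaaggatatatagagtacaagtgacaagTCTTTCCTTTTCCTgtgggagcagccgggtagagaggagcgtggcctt
These runs lie at chr10:23787180-23787309 (minus strand) for Rps12, chr2:180257279-180257408 (plus) for Rps21, chr3:130730369-130730498 (minus) for Rpl34, chr2:26910707-26910836 (plus) for Rpl7a and chr9:64173287-64173416 (plus) for Rpl4. Rps21 and Rpl34 have 2 starts in the table, and the most upstream was taken.

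Promoters of 55 of the 77 genes were matched by symbol in the RefSeq table of 300-base promoters. A run of at least 8 pyrimidines on the transcribed strand, within 50 bases before or after the start, stood in 47 of the 55 (85.5%), against 39.3% of 27025 genes. CCGGAAG on either strand stood in 22 of the 55 (40%), against 9.93% of all. TATAAA, the letters of the TATA box, stood within 50 bases before the start in 0 of the 55, against 3.15% of all. Printed above, Rps12, Rpl34, Rpl7a and Rpl4 hold the pyrimidine run and Rps21 holds CCGGAAG at 2 places. Against the start used, the run ends before it in Rpl34 and Rpl4, spans it in Rpl7a and lies after it in Rps12. A run counted here therefore need not be the tract that begins the mRNA.

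Ribosomal protein mRNAs were among the abundant mRNAs of both tissues. Per kilobase of the deposited gene length, the median over the genes was 44.5 CPM in liver and 40 CPM in kidney, against 1.58 and 1.32 over all nonmitochondrial genes tested. All 75 and all 77 lay above those medians. Rpl32, a large subunit protein (mm9 chr6:115755523-115758765, minus strand), was highest per kilobase in both tissues, at 288 ± 166 CPM per kilobase in liver and 493 ± 226 in kidney (SD, n = 18 each). Rps25, a small subunit protein needed for entry at some viral internal ribosome sites, followed in liver at 218 ± 106. The SDs of the 2 genes overlap, but within a library Rpl32 was above Rps25 in 18 of 18 livers, by a ratio of 1.06 to 1.8 per kilobase. In kidney the second place was held by Rps27, a zinc-finger protein of the small subunit, at 281 ± 127, and Rpl32 was above it in 18 of 18 kidneys.

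The lowest levels per kilobase were those of Rps4y2, at 2.53 ± 0.834 in liver and 1.51 ± 0.45 in kidney. Its gene ID carries the symbol Rps4l, a Rps4 copy, in GENCODE vM21. Rps19, the gene most often mutated in human Diamond-Blackfan anaemia, came next in liver at 6.39 ± 3.73 and stood at 10.5 ± 4.87 in kidney. These ranks rest on the deposited lengths. That of Rps19 is 4685 bases, against 633 for its GENCODE vM21 transcript, and that of Rps25 in liver is 443, against 577. Before division by length, Rps19 averaged 30 CPM in liver, above Rpl29 at 16.6 CPM. Rpl23a, which sits at the exit of the peptide tunnel, reached 49.7 ± 14.7 per kilobase in liver and 7.64 ± 1.88 in kidney, where only Rps4y2 was lower. Its deposited length was 825 bases in liver and 847 in kidney, and its mean was 41 and 6.47 CPM. Whether its reads were mapped or counted in the same way in both tissues was not tested. The tables were made apart, with gene lengths that differ for some genes, so levels are set beside each other across tissues and not tested. Across the 75 shared genes the mean log2 level per kilobase in liver and in kidney had a Pearson r of 0.86 and a Spearman rho of 0.84, over genes that share the same libraries.

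Many processed pseudogenes resemble these genes. The tables hold 150 pseudogene rows for 49 of the liver genes and 162 for 51 of the kidney genes, and for no gene did they reach 10% of its own counts. Reads could still have been split between near-identical copies, or dropped for matching several, before counting, and whether counting used strand is not stated. The kidney alignment names carry a mark that may stand for a read quality filter, and the liver column names lack it. Its effect on these genes was not tested. Rpl24, a large subunit protein that bridges to the small subunit, is uncertain: its ID belongs to Zbtb11 in GENCODE vM21, and its deposited length is 6029 bases in kidney and 1158 in liver.

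Together the genes took 0.879 to 2.16% of the nonmitochondrial counts in liver and 1.11 to 3.59% in kidney, and the spread lay between libraries of one diet. In liver, KD 0 and KD 1 had 1.87 and 1.73%, against 0.879, 0.896, 1.34, 0.948 and 0.917% in KD 2 to KD 6. Control 0 and Control 1 had 2.16 and 1.95%, against 1.11, 1.3 and 1.13% in Control 2 to Control 4. HF 0 and HF 1 had 1.13 and 1.06%, against 1.02, 1.24, 0.88 and 1.16% in HF 2 to HF 5. Within KD and within Control the libraries numbered 0 and 1 stood above all others of their diet, while within HF they fell among them.

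**Figure D1:**
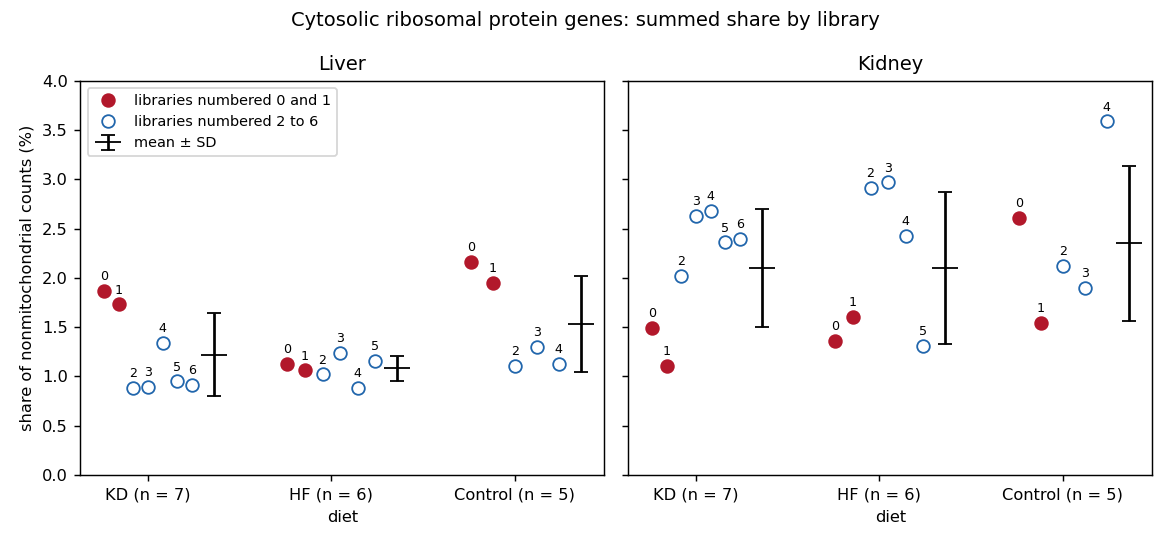
Summed share of the cytosolic ribosomal protein genes in the nonmitochondrial counts (%, vertical axis) for each library of KD, HF and Control in liver (left) and kidney (right); each point is 1 library with its number, filled for numbers 0 and 1, and bars give mean ± SD. In liver KD 0, KD 1, Control 0 and Control 1 lie at 1.73% or above and all other libraries at 1.34% or below, while in kidney most libraries numbered 0 and 1 lie low.

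Kidney showed the opposite arrangement. KD 0 and KD 1 had 1.49 and 1.11%, against 2.02, 2.63, 2.68, 2.36 and 2.4% in KD 2 to KD 6. HF 0 and HF 1 had 1.36 and 1.6%, against 2.91, 2.97, 2.43 and 1.31% in HF 2 to HF 5. Control 0 and Control 1 had 2.61 and 1.54%, against 2.12, 1.9 and 3.59% in Control 2 to Control 4. The split by number was complete within KD alone: HF 5 lay below HF 0, and Control 0 stood above Control 2 and Control 3. The numbers of the kidney files, given in the labels, run from 1 to 6 for the libraries numbered 0 and 1; the labels do not say what a number marks.

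Gene by gene, the difference between libraries numbered 0 and 1 and the rest, taken within diets on log2 CPM, was above 0 for 75 of 75 genes in liver, with a median of 0.83 against -0.03 over all genes. It was above 0 for 0 of 77 in kidney, with a median of -0.69 against -0.01 over all genes. Without normalization factors 74 of 75 were above 0 in liver, and with RLE factors 1 of 77 was above 0 in kidney. This split was known from earlier results of these data and is given as values, without a test. With all diets pooled, 0 of 75 genes in liver (0.0822% of all genes) and 0 of 77 in kidney (0.0398%) had 6 libraries that did not overlap the other 12, since the HF libraries and Control 0 of kidney crossed the line.

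Within diets the counts were larger. In liver, KD 0 and KD 1 lay above KD 2 to KD 6 for 53 of 75 genes (7.96% of all genes) and below them for 0 of 75 (7.01%), with a median difference of 1.02. Control 0 and Control 1 lay above Control 2 to Control 4 for 72 of 75 (18.2% of all) and below them for 0 of 75 (16.7% of all), with a median of 1.14. For HF 5 of 75 lay above (6.36% of all) and 0 of 75 below (6.8% of all), with a median of 0.27. In kidney, KD 0 and KD 1 lay below KD 2 to KD 6 for 71 of 77 genes (11.5% of all) and above them for 0 of 77 (7.64%), with a median of -1.02. For kidney HF 8 of 77 lay below (8.56% of all) and 0 of 77 above (4.45%), with a median of -0.66. For kidney Control 3 of 77 lay below (9.12% of all) and 1 above (8.09% of all), with a median of -0.27. In the direction of each median, the counts within KD in both tissues and within Control in liver were far above the share of all genes, those within HF in both tissues were nearer to it, and that within Control in kidney was below it. In the other direction every count was below the share of all genes.

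**Figure D2:**
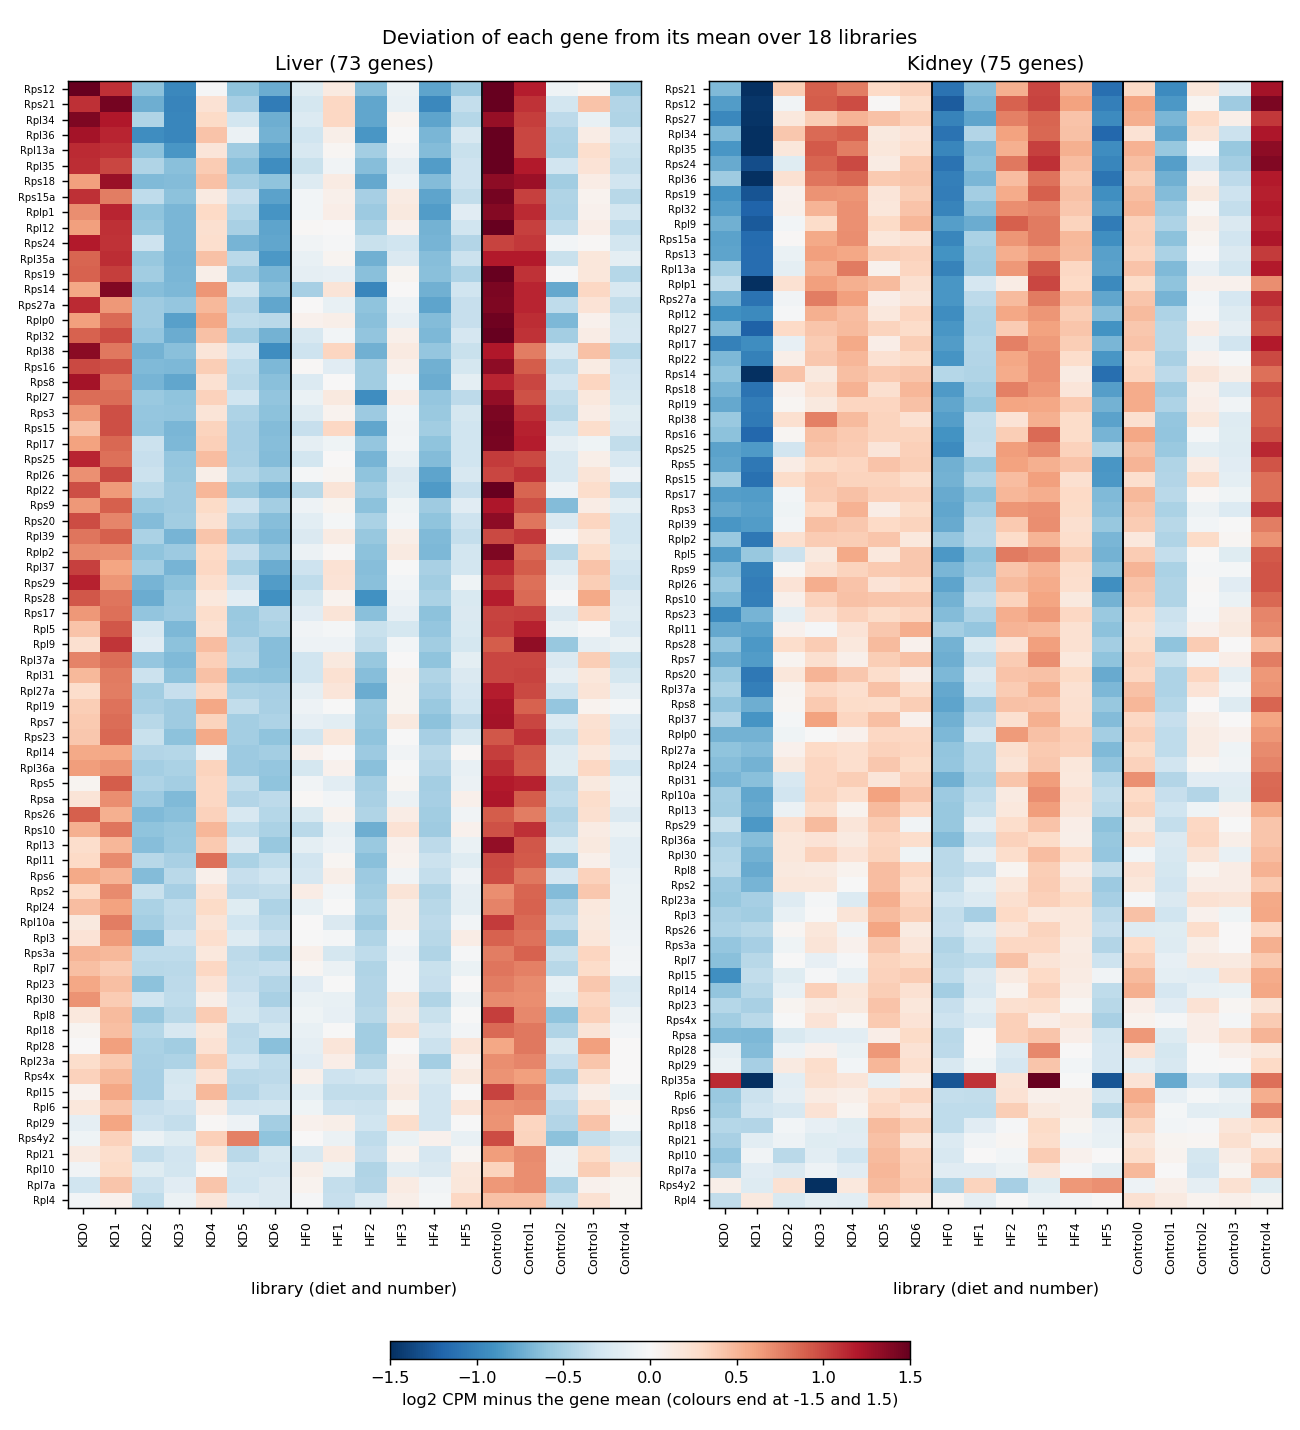
Deviation of each gene's log2 CPM from its mean over the 18 libraries (colour, log2 units, ending at -1.5 and 1.5) for 73 liver genes (left) and 75 kidney genes (right), with libraries in columns by diet and number and genes ordered by the size of the difference between library numbers. Columns are nearly uniform in colour: KD 0, KD 1, Control 0 and Control 1 are high in liver, KD 0, KD 1, HF 0, HF 1, HF 5 and Control 1 are low in kidney, and Rpl4, at the bottom, is pale in both.

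Rps12, a protein of the beak of the small subunit that takes part in cell competition in Drosophila, had the largest difference in liver. It had 62.6 and 46.3 CPM in liver KD 0 and KD 1, against 14.2, 11.1, 21.5, 14.3 and 13 CPM in KD 2 to KD 6. In Control 0 and Control 1 it had 79.3 and 49.3 CPM, against 20.7, 21.9 and 14.7 CPM in Control 2 to Control 4. The groups of numbers did not overlap in either diet, and the difference over all diets was 1.37 on the log2 scale. In HF, libraries 0 and 1 had 19.2 and 23.8 CPM, against 13.9, 20.3, 12.6 and 15 CPM in HF 2 to HF 5, where HF 3 lay between them. The same gene in kidney had 21.4 and 13.9 CPM in KD 0 and KD 1, against 37, 72.1, 75.3, 38.9 and 45.8 CPM in KD 2 to KD 6, and a difference over all diets of -1.15.

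Rps21, a small subunit protein whose Drosophila homologue binds the Rpsa homologue, had the largest difference in kidney, -1.22, and 1.35 in liver. It had 63.4 and 80.1 CPM in liver KD 0 and KD 1, against 17.9, 14.9, 34.5, 21 and 14.3 CPM in KD 2 to KD 6. In kidney it had 30.1 and 14.3 CPM in KD 0 and KD 1, against 61.3, 88.3, 81, 58.4 and 60.2 CPM in KD 2 to KD 6. Neither set overlapped within KD. Rpl34, a large subunit protein, had a difference of 1.25 in liver and -1.09 in kidney. Its liver values were 58.4 and 50.9 CPM in KD 0 and KD 1, against 16.2, 11.2, 26.9, 18.3 and 13.3 CPM in KD 2 to KD 6.

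Rpl4, a protein that lines the peptide tunnel and one of the most abundant members, differed least, by 0.12 in liver and -0.01 in kidney. It had 247 and 265 CPM in liver KD 0 and KD 1, against 194, 239, 288, 225 and 218 CPM in KD 2 to KD 6, and these overlapped. Kidney values were 154 and 220 CPM in KD 0 and KD 1, against 170, 180, 178, 246 and 222 CPM in KD 2 to KD 6. Its SD over the 18 libraries was 0.25 in liver and 0.17 in kidney on the log2 scale, against 0.85 and 0.88 for Rps12. Rpl7a, whose archaeal relative binds kink turns in RNA, differed by 0.27 in liver and -0.14 in kidney. Rpl10, which joins the large subunit late in its assembly, differed by 0.28 and -0.16.

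The other members filled the range between these. The stalk proteins, which recruit the translation factors that use GTP, differed by 1.02 (Rplp0), 1.07 (Rplp1) and 0.87 (Rplp2) in liver and by -0.63, -0.86 and -0.75 in kidney. Rps6, the substrate of the S6 kinases below mTORC1, had 0.64 in liver and -0.31 in kidney. Rps3, which lies at the mRNA entry channel, had 0.96 and -0.76. Rpl5 and Rpl11, which form a particle with 5S RNA and can bind Mdm2, had 0.84 and 0.66 in liver and -0.74 and -0.70 in kidney. These values all lay within the range spanned by Rpl4 and Rps12 in liver.

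Members with tissue-restricted or disease roles were spread in the same range. Rpl38, needed for the translation of Hox mRNAs in mouse embryos, had 1.00 in liver and -0.79 in kidney. Rpl22, needed for mouse T-cell development, had 0.91 and -0.82. Rpl13a, part of an inhibitor complex of inflammatory mRNAs in human myeloid cells, had 1.16 and -0.87. Rps19 had 1.04 and -1.01, and Rps24, also mutated in Diamond-Blackfan anaemia, had 1.05 and -1.06. Rps27a, made as a fusion with ubiquitin, had 1.02 and -0.85.

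Rpl35a, another Diamond-Blackfan gene, left the shared pattern in kidney. Its kidney values were 123 and 18.6 CPM in KD 0 and KD 1, against 50.8, 67.1, 64.2, 52.2 and 60.2 CPM in KD 2 to KD 6. In HF they were 23.3 and 120 CPM in HF 0 and HF 1, against 64.8, 215, 56.5 and 23.3 CPM in HF 2 to HF 5. KD 0, HF 1 and HF 3 were high where the other genes were low or only moderately high. Its range over the kidney libraries was 3.52 on the log2 scale and its SD 0.90, the highest SD of the kidney genes named here. In liver it followed the other genes, with a difference of 1.05.

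Across the 75 genes found in both tables, the difference in liver and the difference in kidney had a Pearson r of -0.89 and a Spearman rho of -0.86. The SD over libraries in liver and in kidney had r = 0.89 and rho = 0.89. These describe genes within the same libraries of each tissue, and genes are not independent replicates. Members varied more than genes at large: their median SD was 0.57 in liver, against 0.42 over all genes tested, and 0.50 in kidney, against 0.30.

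**Figure D3:**
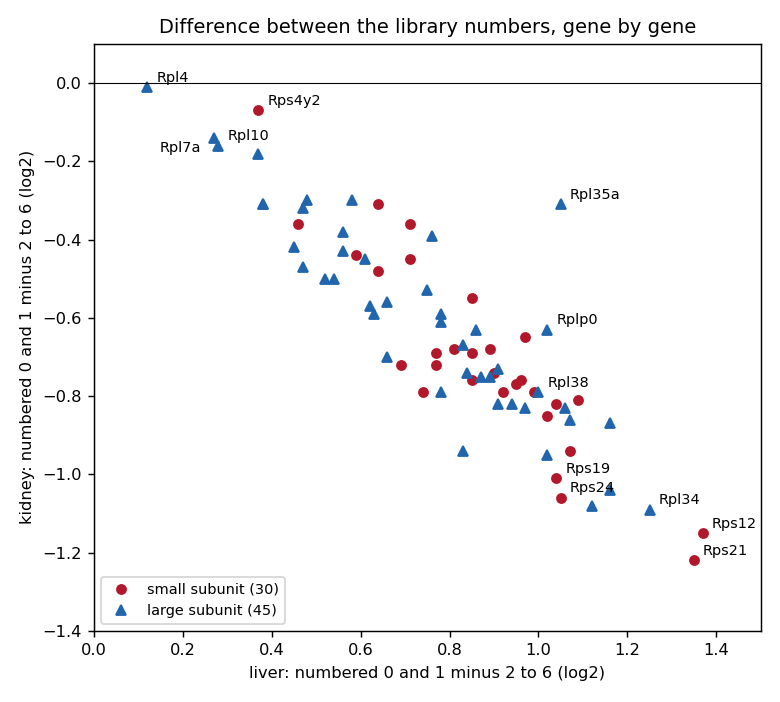
Difference between libraries numbered 0 and 1 and those numbered 2 to 6 (log2, diet taken into account) in liver (horizontal) and kidney (vertical), 1 point per gene, circles for 30 small subunit and triangles for 45 large subunit genes. Genes with a high value in liver have a low value in kidney, from Rpl4 (0.12 and -0.01) to Rps21 (1.35 and -1.22), and Rpl35a (1.05 and -0.31) lies off the trend.

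Genes with a shorter coding sequence tended to have larger differences. With coding lengths from GENCODE vM21, matched by gene ID for 73 liver and 75 kidney genes, log2 coding length and the difference had r = -0.48 and rho = -0.49 in liver and r = 0.46 and rho = 0.44 in kidney. For the 24 genes with the shortest coding sequence (153 to 405 bases) the median difference in liver was 0.92, against 0.64 for the 24 longest (582 to 1257 bases). In kidney the 25 shortest had -0.79 and the 25 longest -0.48. With the length of the whole transcript the relation was weaker, r = -0.28 and rho = -0.33 in liver and r = 0.33 and rho = 0.38 in kidney. The GC percent of the transcript and the difference had r = -0.02 in liver and 0.00 in kidney.

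Other genes moved along. Among genes outside the family, the difference between libraries numbered 0 and 1 and the rest had a median of 0.24 for 786 liver genes longer than 500 and up to 1000 bases and -0.13 for 3347 genes over 5000 bases. In kidney it was -0.28 for 688 genes longer than 500 and up to 1000 bases and 0.08 for 4503 genes over 5000 bases. The shortest genes, up to 500 bases, did not go further, with 0.11 for 311 in liver and -0.25 for 264 in kidney. The ribosomal protein genes, with a median deposited length of 1291 bases in liver (3179 over all genes) and 1464 in kidney (3539.5 over all), went further, as a median, than other genes of their length. Nuclear oxidative phosphorylation genes came nearer. Their median deviations were 0.68 and 0.7 in liver KD 0 and KD 1, against 0.58 and 0.77 for the ribosomal protein genes. In liver Control 0 and Control 1 they were 0.63 and 0.68, against 1.04 and 0.96. In kidney KD 0 and KD 1 they were -0.56 and -0.64, against -0.6 and -0.84. Library size moved with the number in liver, where the libraries numbered 0 and 1 held 18.9 to 26.1 M counts and the others 24.5 to 35.9 M counts. In kidney they held 29.5 to 40.2 M counts and the others 25.4 to 47 M counts.

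Summed cell type markers overlapped between the library numbers. Hepatocyte genes summed to 39500 to 56700 CPM in liver libraries numbered 0 and 1, against 39900 to 52300 in the others, and proximal tubule genes to 5740 to 8720 CPM in kidney, against 6680 to 9310. The 7 lymphocyte genes tested in liver, of 12 listed, summed to 5.75 to 11.5 CPM in libraries numbered 0 and 1, against 7.01 to 34.1 in the others. The 11 tested in kidney summed to 8.72 to 50.8 CPM, against 5.66 to 32.5. The part of gene length, library size or other cells in the pattern was not tested. In tissue RNA, fewer cells of a type and less RNA per cell cannot be told apart.

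**Figure D4:**
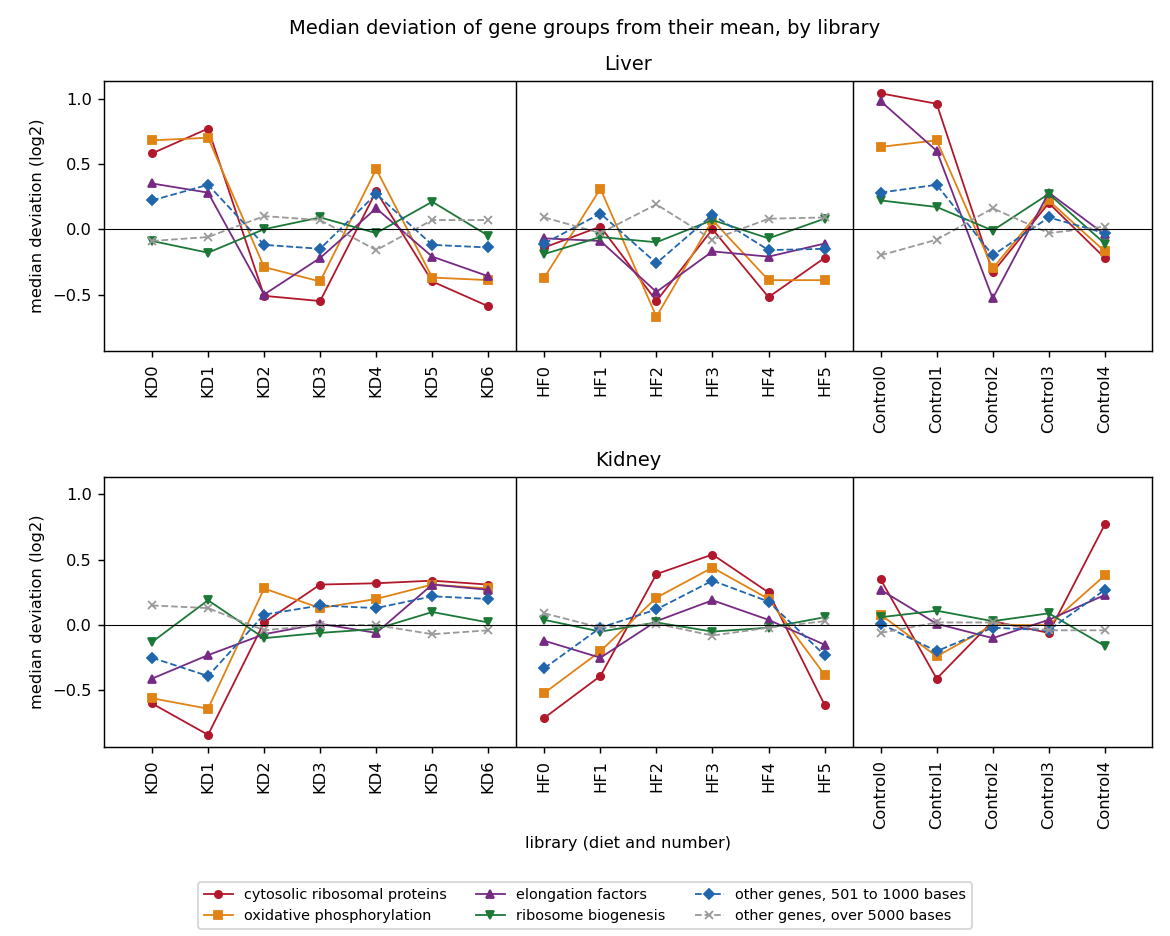
Median deviation (log2) of 6 gene groups from their mean over the libraries, by library, in liver (top) and kidney (bottom); lines join the points of 1 group and stand for no order in time. The ribosomal protein genes range from -0.59 (KD 6) to 1.04 (Control 0) in liver and from -0.84 (KD 1) to 0.77 (Control 4) in kidney, oxidative phosphorylation genes and short genes deviate in the same libraries, and genes over 5000 bases stay between -0.20 and 0.19.

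On the question whether a week of either diet changed these genes, 0 of 75 genes passed in liver for KD against Control (0% of all genes tested passed; edgeR quasi-likelihood test, Benjamini-Hochberg adjusted p under 0.05). All 75 log2 changes were below or at 0 (52.7% of all genes were below 0), with a median of -0.40 against -0.02 over all genes and a range of -0.65 to 0.00. At an unadjusted p under 0.05, 7 of 75 were lower in KD (5.02% of all genes) and 0 of 75 were higher (4.36% of all genes). DESeq2 and limma-voom also passed 0 of 75, with 11 and 5 at an unadjusted p under 0.05. The shares of all genes are given for edgeR alone. The share of nonmitochondrial counts averaged 1.22 ± 0.424% in KD and 1.53 ± 0.49% in Control livers (SD, n = 7 and 5).

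Adipocyte, lymphocyte and erythroid markers had log2 changes above 0 in the same comparison, and none passed the adjusted threshold. Macrophage and endothelial markers had medians of 0.00 and -0.03. Other lists lay lower, with medians of -0.48 for muscle (3 genes tested) and -0.11 for stellate cells and fibroblasts (8). The 1 pancreatic acinus gene tested had -0.39. The 4 adipocyte genes tested in liver, of 8 listed, all lay above 0, with a median log2 change of 1.15, and summed to 43.6 to 89.3 CPM in KD, 10.7 to 67.7 in HF and 3.88 to 46.5 in Control livers. Cfd, the complement factor adipsin, had 2.93 ± 1.03 (SE) with an adjusted p of 0.397 in the edgeR test. Adipoq and Lep, which encode the fat cell hormones adiponectin and leptin, were at or near 0 in the liver libraries. The 7 lymphocyte genes had a median of 0.83 and summed to 5.75 to 34.1, 7.01 to 15.6 and 6.18 to 23.2 CPM in KD, HF and Control, with Ms4a1, the B cell antigen CD20, at 2.77 ± 0.62 and an adjusted p of 0.224 in the same test. The 6 erythroid genes had a median of 0.47, with sums of 55.2 to 134, 33.2 to 121 and 40.6 to 110 CPM. In HF against Control the adipocyte, lymphocyte and erythroid lists had medians of 0.53, 0.47 and -0.07. Their part in the lower values of the ribosomal protein genes was not tested.

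Rpl10 had the smallest p of this comparison. It had 144, 155 and 214 CPM in KD livers as lowest, median and highest, against 220, 285, 163, 226 and 194 CPM in Control 0 to Control 4. All 7 KD libraries were below the Control mean, but they overlapped Control 2 and Control 4. The log2 change was -0.41 ± 0.15 (SE) with an adjusted p of 0.397 in the edgeR quasi-likelihood test. Rpl21, also of the large subunit, had a change of -0.40 ± 0.16 with an adjusted p of 0.464. The small subunit genes (30) and the large subunit genes (45) had the same median of -0.40.

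HF against Control gave the median farthest from 0, and in liver 0 of 75 genes passed (0% of all genes tested; edgeR, adjusted p under 0.05). Every log2 change was below 0, for 75 of 75 genes (52.1% of all genes), with a median of -0.71 against -0.02 over all genes and a range of -1.10 to -0.21. At an unadjusted p under 0.05, 59 of 75 were lower in HF (4.53% of all genes) and 0 of 75 higher (2.57% of all genes). DESeq2 and limma-voom passed 0 of 75, with 63 and 24 at an unadjusted p under 0.05, and the shares of all genes are those of edgeR alone. The share of nonmitochondrial counts averaged 1.08 ± 0.125% in HF and 1.53 ± 0.49% in Control livers (SD, n = 6 and 5).

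Rps7, a small subunit protein that can bind Mdm2, had the smallest p. It had 29.4, 37.2 and 49.7 CPM in HF livers as lowest, median and highest, against 107, 89.8, 39, 52.8 and 39.1 CPM in Control 0 to Control 4. Control 0 and Control 1 stood far above every HF library, Control 3 just above, and Control 2 and Control 4 within the HF range. Its log2 change was -0.80 ± 0.28 (SE) with an adjusted p of 0.681 in the edgeR test. Rpl13 of the large subunit had -0.72 ± 0.26 with the same adjusted p of 0.681.

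These liver values rest on few libraries. Without Control 0 the median of HF against Control was -0.46 and 1 gene was left at an unadjusted p under 0.05, and without Control 1 the median was -0.56 with 9 genes. For KD against Control the median was -0.20 without Control 0, with 1 gene left, and -0.55 without KD 1, with 37 genes. The shares of all genes at that level in these refits are not given here. With libraries numbered 2 to 6 alone, the medians were -0.20 for KD against Control and -0.22 for HF against Control, and with those numbered 0 and 1 alone they were -0.34 and -1.07. With each library's median deviation over other genes longer than 500 and up to 1000 bases as a term, added after seeing the data, the median of HF against Control was -0.15. The SD of the libraries' median deviation within diets was 0.52 in liver, larger than the KD difference from Control and smaller than the HF one. It describes single libraries and is not the error of a difference between diets.

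KD against HF in liver passed 0 of 75 genes (0% of all genes tested; edgeR, adjusted p under 0.05), and the smallest adjusted p was 0.999. The median log2 change was 0.30 against 0.01 over all genes, with 3 of 75 below 0 (48.4% of all genes). At an unadjusted p under 0.05, edgeR, DESeq2 and limma-voom each gave 0 of 75, while edgeR had 1.66% of all genes higher and 1.53% lower in KD. Rps25 had 56, 68.8 and 193 CPM in KD livers as lowest, median and highest, against 54.3, 71.9 and 88.4 CPM in HF livers. The medians were close, and KD 0, KD 1 and KD 4 stood above every HF library. Its log2 change was 0.54 ± 0.30 (SE) with an adjusted p of 0.999 in the edgeR test. Rps14, deleted in a human myelodysplastic syndrome, and Rps24 had 0.60 ± 0.38 and 0.52 ± 0.33. With libraries numbered 2 to 6 alone the median over the genes was -0.03, without normalization factors it was 0.07, and with the median deviation of other short genes as a term, added after seeing the data, it was -0.11.

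**Figure D5:**
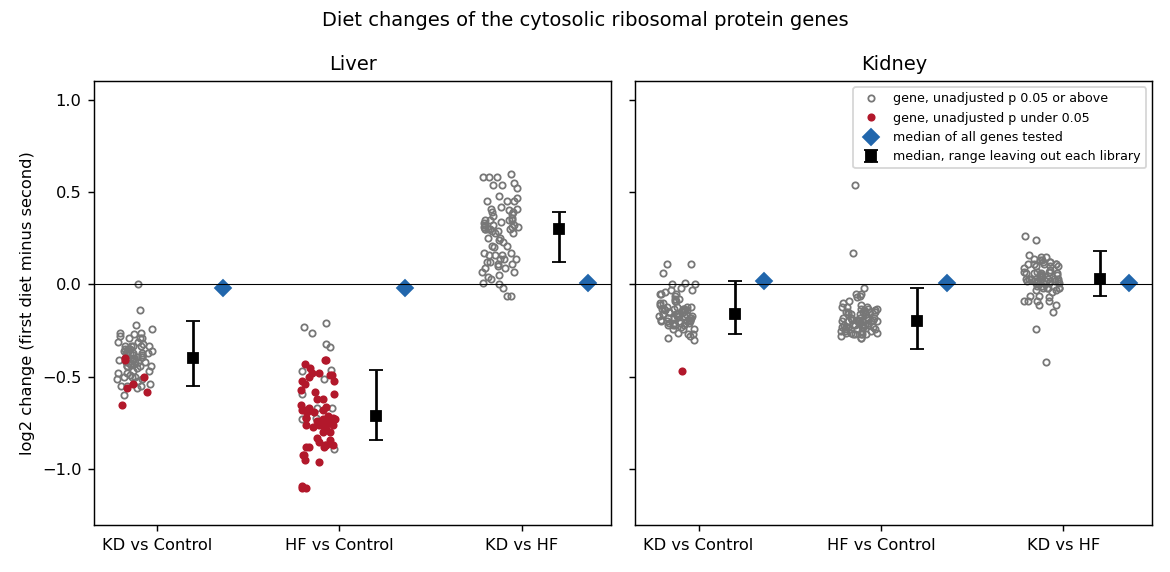
Log2 change of each ribosomal protein gene for KD against Control, HF against Control and KD against HF in liver (left) and kidney (right); circles are genes, filled where the unadjusted p was under 0.05, squares give their median with its range when each library was left out in turn, and diamonds give the median of all genes tested. Liver medians are -0.40, -0.71 and 0.30, kidney medians -0.16, -0.20 and 0.03, and no gene passed after adjustment.

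The kidney medians were closer to 0. KD against Control passed 0 of 77 genes (0.325% of all genes, 49 of 15074; edgeR, adjusted p under 0.05), with a median of -0.16 against 0.02 over all genes and 72 of 77 below 0 (46.8% of all genes). At an unadjusted p under 0.05, 1 of 77 was lower in KD (3.07% of all genes) and 0 of 77 higher (5.28%). DESeq2 and limma-voom passed 0 of 77, with 1 each at that level, and the shares of all genes are those of edgeR alone. The share of nonmitochondrial counts averaged 2.1 ± 0.596% in KD and 2.35 ± 0.789% in Control kidneys (SD, n = 7 and 5). Without Control 4, the library with the highest share, the median was 0.02 and 30 of 77 were below 0, so the direction of the median rests on that library.

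Rpsa was the gene below 0.05. It encodes a small subunit protein that is also known as a laminin receptor. Rpsa had 29.7, 42.7 and 58.1 CPM in KD kidneys as lowest, median and highest, against 74.7, 41.4, 50.7, 55.9 and 67.7 CPM in Control 0 to Control 4. The groups overlapped, and 6 of 7 KD libraries lay below the Control mean. The log2 change was -0.47 ± 0.18 (SE) with an adjusted p of 0.428 in the edgeR test. Each library's median deviation over other genes longer than 500 and up to 1000 bases was then added as a term, after seeing the data. With that term Rpsa had -0.50 and an adjusted p of 0.0137 in the edgeR test, and was the 1 gene of 77 that passed. The share of all genes that passed with it is not given here, so the 1 of 77 is not read as a result about the members. Rpl15 and Rpl7 of the large subunit had -0.29 ± 0.18 and -0.24 ± 0.17 without that term.

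HF against Control in kidney passed 0 of 77 genes (0.0133% of all genes; edgeR, adjusted p under 0.05), and 0 of 77 had an unadjusted p under 0.05 by edgeR (2% of all genes lower in HF and 3.73% higher), DESeq2 or limma-voom. The median was -0.20 against 0.01 over all genes, with 75 of 77 below 0 (47.3% of all genes). Rpl6 of the large subunit had 43.2, 52.3 and 64.9 CPM in HF kidneys as lowest, median and highest, against 81.8, 51, 54.7, 52.4 and 81.2 CPM in Control 0 to Control 4. Only Control 0 and Control 4 stood above the HF range. Its log2 change was -0.29 ± 0.17 (SE) with an adjusted p of 0.934 in the edgeR test. Rps6 and Rpl36a both had -0.27 ± 0.19. Without Control 4 the median over the genes was -0.02.

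KD against HF in kidney passed 0 of 77 genes (0.0464% of all genes; edgeR, adjusted p under 0.05), with a median of 0.03 against 0.01 over all genes and 23 of 77 below 0 (48.1% of all genes). At an unadjusted p under 0.05, edgeR, DESeq2 and limma-voom each gave 0 of 77, while edgeR had 1.98% of all genes lower and 2.08% higher in KD. Rpsa again had the smallest p, with 29.7, 42.7 and 58.1 CPM in KD kidneys as lowest, median and highest, against 36, 49 and 63.5 CPM in HF kidneys. Its log2 change was -0.24 ± 0.17 (SE) with an adjusted p of 1 in the edgeR test. Rpl29, a small basic protein of the large subunit, had 0.16 ± 0.14, and Rpl35a had -0.42 ± 0.51. Within libraries numbered 0 and 1 the median of KD against Control in kidney was -0.77 and of HF against Control -0.57, and within numbers 2 to 6 it was -0.04 and -0.10. The comparisons of KD and HF with Control share the Control libraries, so their values are given side by side and not as independent results.

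The rest of the translation machinery gave smaller medians than the ribosomal proteins in liver. For KD against Control and HF against Control the medians were -0.35 and -0.50 for 8 elongation factors, which carry the ribosome along the mRNA, -0.13 and -0.17 for 37 initiation factors, and -0.09 and -0.13 for 53 ribosome biogenesis genes. Genes of none of these lists passed the adjusted threshold in either comparison. Eef1d, an exchange factor of elongation factor 1, had -0.56 ± 0.19 in HF against Control livers with an adjusted p of 0.681 in the edgeR test. Other mRNAs known for a terminal oligopyrimidine tract (11 genes) had -0.29 and -0.39, and Btf3, part of the nascent polypeptide-associated complex, had -0.52 ± 0.16 in HF against Control with the same adjusted p. Fau and Gnb2l1, ribosomal proteins of the small subunit with other names, had medians of -0.34 for KD against Control and -0.73 for HF against Control.

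The 76 mitochondrial ribosomal protein genes had liver medians of -0.04 for KD against Control and -0.21 for HF against Control. The 52 nuclear genes of oxidative phosphorylation, which also have short abundant mRNAs, had -0.14 and -0.48. In HF against Control 52 of 52 lay below 0 (52.1% of all genes). At an unadjusted p under 0.05 in the edgeR test, 10 were lower (4.53% of all genes). The 786 other genes longer than 500 and up to 1000 bases had -0.10 and -0.21, and the 3347 over 5000 bases had 0.00 and 0.06. In kidney the medians for KD against Control and HF against Control were -0.16 and -0.16 for elongation factors, -0.09 and -0.12 for initiation factors, 0.02 and -0.06 for oxidative phosphorylation and -0.06 and -0.06 for mitochondrial ribosomal proteins, and no gene of these lists passed.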

How the data were processed

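Liver and kidney RNA of 36 libraries was amplified with random and poly-T primers and sequenced on a HiSeq 2000, per the labels' protocols. Per the file headers, the deposited tables hold raw counts per gene. The deposited kidney values are whole numbers too, so the rounding that estimated counts need changed nothing. Per the submitters' processing notes, the authors used TopHat2 2.0.11, Subread featureCounts, DESeq and edgeR with build mm9; strand use is not given in the sources used here. The 36 other columns of per-sample values in the liver table and 54 in the kidney table were not used.

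Each tissue was fitted apart with R 4.3.3 and edgeR 4.0.16 (TMM, filterByExpr with a minimum count of 10, robust quasi-likelihood F test, diet as the only term, 18 libraries, Benjamini-Hochberg adjustment over all genes, threshold 0.05). Log2 CPM for display used a prior count of 2. limma 3.58.1 (voom) and DESeq2 1.42.0 were alternatives. The fit was tested on simulated data.

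The genes named are those with the smallest p of each comparison, those at the ends of the level and of the difference between library numbers, and genes of known role; 2 genes that this rule names are not reported here by name. Members and gene lists were chosen with earlier results of these data known. Promoters are RefSeq sequences on GRCm38.p6; gene coordinates in mm9 come from the tables, and the 2 builds are not mixed. Library depth sets the precision of counts, and the values per library give the error.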

Additional observations from a re-analysis of the deposited data

Results flagged for a closer look

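Among 189 groups of 5 to 7 libraries examined for a single library standing apart, 1 had one. This count cannot be set against the 1 in 20 that chance gives, because the groups share libraries and their genes vary together. A search for a single library can also miss libraries that stand apart together, as in liver KD, liver Control and kidney KD. Rpl29, a large subunit protein, had 24.4 CPM in kidney HF 3, against a median of 15.5 CPM in the other HF kidneys, with a gap of 0.722 of the range and a limit of 0.625.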

How the results depend on the processing

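Of 932 repeats of the results under other settings, 920 kept their call or moved by less than the spread between libraries. That spread was the SD of single libraries within diets, not the error of a difference between diets. It was 0.52 in liver and 0.50 in kidney. Among the main medians of the diet comparisons, only that of HF against Control in liver was larger in size. A median could therefore change sign and stay within it. A term added after seeing the data was each library's median deviation over other genes longer than 500 and up to 1000 bases. With it the liver median of HF against Control was -0.15. In kidney KD against Control 1 ribosomal protein gene then passed, Rpsa, at -0.50 (adjusted p = 0.0137 in edgeR). The share of all genes that passed with that term is not given here. With libraries numbered 0 and 1 alone the kidney median of KD against Control was -0.77, and Rpl29 in KD against HF turned to -0.13. Rpl35a in kidney KD against HF ran from -0.68 (without KD 0) to 0.11 (without HF 3). In liver, libraries numbered 0 and 1 lay above the rest without overlap for 53, 5 and 72 of 75 genes within KD, HF and Control. The shares of all genes were 7.96, 6.36 and 18.2%. In kidney they lay below the rest for 71, 8 and 3 of 77 genes, against 11.5, 8.56 and 9.12% of all genes. Within kidney Control 1 gene lay above (8.09% of all genes). Over all diets the counts were 0 in liver (0.0822% of all genes) and 0 in kidney (0.0398%). The cause was not tested.

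Leaving out each library in turn passed 0 ribosomal protein genes in every comparison. Medians then ran from -0.55 to -0.20 (KD against Control), -0.84 to -0.46 (HF against Control) and 0.12 to 0.39 (KD against HF) in liver, and from -0.27 to 0.02, -0.35 to -0.02 and -0.06 to 0.18 in kidney. With the replicate number as a block no ribosomal protein gene passed, and the medians in that order were -0.26, -0.54 and 0.29 in liver and -0.25, -0.24 and -0.03 in kidney. The numbers were not taken to pair the libraries, since not every same-numbered pair correlated above 0.1: deviations had r of -0.206 to 0.293 in liver (median 0.0478, against 0.0124 for other pairs; 7 of 16 above 0.1) and -0.22 to 0.395 in kidney (0.109 against -0.0274; 9 of 16). In liver 7 of 17 libraries, and in kidney 4 of 17, correlated best with their own number. The limit of 0.1 for every pair was a choice, and a low value in single pairs does not exclude pairing by number. The medians with and without the number as a block are therefore both given. Without normalization factors the liver median of KD against HF was 0.07, while that of all genes was -0.17.

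The spread between libraries of one diet, 0.52 in liver and 0.50 in kidney on the log2 scale, limits what these comparisons can show.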
